A study of Mus musculus with 2 samples.

Results

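The basic helix-loop-helix (bHLH) factors that set the skeletal muscle programme, and the E proteins they pair with, were followed in C2C12 myoblasts after knockdown of Mybbp1a. Every gene probe that carried one of 8 names (Myod1, Myf5, Myog, Myf6, Tcf12, Tcf4, Tcf3 and the older name Tcfe2a) was taken, which gave 8 of 27577 gene names, read by 14 of the 41174 distinct probes in 41 of 43379 gene spots. Of these, 12 probes in 39 spots stood for the 7 bHLH genes, 4 for the myogenic factors and 8 for the E proteins. The other 2 probes carried the name Tcf3 in the files, but their accession belonged to Tcf7l1 in the RefSeq gene table, and they are described apart from the E proteins.

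C2C12 is an established mouse myoblast line, labelled as derived from adult leg muscle of the C3H strain. The control cells expressed a control short hairpin RNA (shRNA) and the knockdown cells an shRNA against Mybbp1a, each as mixed stable clones, so that every sample is a mixture of clones and not 1 clone. Both were grown subconfluent in medium with 20% fetal bovine serum, the condition that keeps myoblasts proliferating, and 0.5 µg of total RNA of each was labelled. The 2 arrays, called biological replicates in the labels, each set knockdown RNA in Cy5 against control RNA in Cy3. No dye swap was made, so a bias of the dyes and an effect of the knockdown cannot be told apart, and neither can slide and replicate. The labels do not say that the replicates came from separate cultures or infections, so a p-value here covers only how far these 2 arrays differ, and that spread may be technical.

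Myogenic factors bind DNA as heterodimers with E proteins, at the E-box CANNTG, in the regulatory regions of muscle genes. Myod1 and Myf5 mark committed, proliferating myoblasts, Myog is switched on as the cells leave the cell cycle to differentiate, and Myf6 is best known from later stages and mature fibres. The Id proteins hold this system back: they have no basic region and capture E proteins in dimers that cannot bind DNA.

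The probes are 60 bases long, and the first 30 bases of those that the ratios turn on are shown as the array files give them, to show what each spot reads. The myogenic factors had 1 probe each. Their positions on mouse build mm8, per the files, were chr7:46246628-46246687 on the plus strand for Myod1, chr10:106887028-106887087 on the minus strand for Myf5, chr1:136108708-136108767 on the plus strand for Myog and chr10:106897291-106897350 on the minus strand for Myf6.
Myod1: ttttgttgttgttgttgtagtccttcagtt
Myf5: ttgtatatgccttaaaataacttgataaat
Myog: atcttgggaaccttccagtgctttgtgtat
Myf6: tttaaaaagaaacttctcaccacctcaagt

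Tcf12 is shown because its probes gave unlike ratios. All 3 lie on the minus strand of chromosome 9 in mm8: A_51_P310135 at chr9:71644334-71644393, A_52_P20048 at chr9:71643063-71643122 and A_52_P859153 at chr9:71741981-71742040. The first of them lies 1211 bases from the second and 97587 bases from the last, and whether these positions fall in the same transcripts was not analysed here.
Tcf12 A_51_P310135: aagtgataagcagacaccatctgtgaccat
Tcf12 A_52_P20048: atttacaatagcattttaagagcatagtag
Tcf12 A_52_P859153: atttttgctaatggtcatctttttcactgt

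The names Tcf3 and Tcfe2a are shown because they invite confusion. The E protein gene that RefSeq now calls Tcf3, which encodes the E2A proteins, was read by 2 probes named Tcfe2a on the minus strand of chromosome 10, at chr10:79813023-79813082 and chr10:79816347-79816406. The 2 probes named Tcf3 lie on chromosome 6, at chr6:72556737-72556796 and chr6:72555892-72555951, in a gene of the TCF/LEF family, whose products bind DNA through an HMG box and partner with beta-catenin in Wnt signalling.
Tcfe2a A_51_P394471: cagaaaagttccttcctctcggttaaccag
Tcfe2a A_52_P141662: atgaggaaatcgcatcagtagccgacgccg
Tcf3 in the files, Tcf7l1 A_51_P156547: cacaaaggaagcattattggtcaatatttg
Tcf3 in the files, Tcf7l1 A_52_P387724: tggtttttggaacaatttaaactcccagtt

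Signals were bright enough to read every member. Median spot signals over the gene spots were 329 (knockdown) and 159 (control) on array 1 and 449 and 184 on array 2, over median backgrounds of 44 to 52, and the number of arrays limits the precision. Mybbp1a, the targeted gene, had log2 ratios of knockdown over control of -1.64 and -1.91 on arrays 1 and 2, with a mean of -1.78 ± 0.19 (SD, n = 2), so the knockdown level was 3.42-fold below the control. Its adjusted p was 0.137 by limma with Benjamini-Hochberg adjustment, the lowest that any of the 27005 tested probes reached. All 9 markers of myoblasts (Myod1, Myf5, Pax7, Msc, Cdh15, Itga7, Des, Chrna1 and Fgfr4) were well above background in both channels of both arrays. Markers of other cell types were also read: those above background in every channel were 5 of 6 of fibroblasts, 6 of 7 of osteoblasts and chondrocytes, 3 of 5 of adipocytes, 3 of 5 of leukocytes (Cd3e, Cd68 and Csf1r), 1 of 5 of endothelium (Tek) and 4 of 6 of neural cells. Thy1, Ibsp, Ptprc and Pecam1 of these lists were above background in none. Each marker was read by its brightest probe. Of all 41174 probes, 25607 were above background in every channel, so such a reading is a common one.

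All 14 member probes were well above background in both channels on both arrays, as were 25607 of all 41174 probes. None of the member spots was saturated, and all 14 probes entered the test. None of the 12 bHLH probes was called at an adjusted p under 0.05 by limma, and neither was any other of the 27005 probes (0% higher, 0% lower). At an unadjusted limma p under 0.05, 3 of the 12 were higher in the knockdown, beside 12.7% of all tested probes, and 0 were lower, beside 9.08%. The 3 were Myog, Myf5 and 1 probe of Tcf12. On both arrays 5 of the 12 were higher, beside 37.9%, and 0 were lower, beside 32.1%, while 7 had opposite signs, beside 30.0%. None was at least 2-fold higher or lower on both arrays, beside 0.511% and 0.0370%. The median log2 ratio of the 12 was 0.15, with 0.04 on array 1 and 0.40 on array 2, where the median of all tested probes was 0.02. Median centring of the arrays in place of loess moved the median of all tested probes to 0.19. It called 4358 probes higher (16.1% of those tested) and 120 lower (0.444%). Among those higher were then 4 of the 12 bHLH probes. The normalization thus decides the calls, and the values below are loess ratios unless said otherwise.

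**Figure D1:**
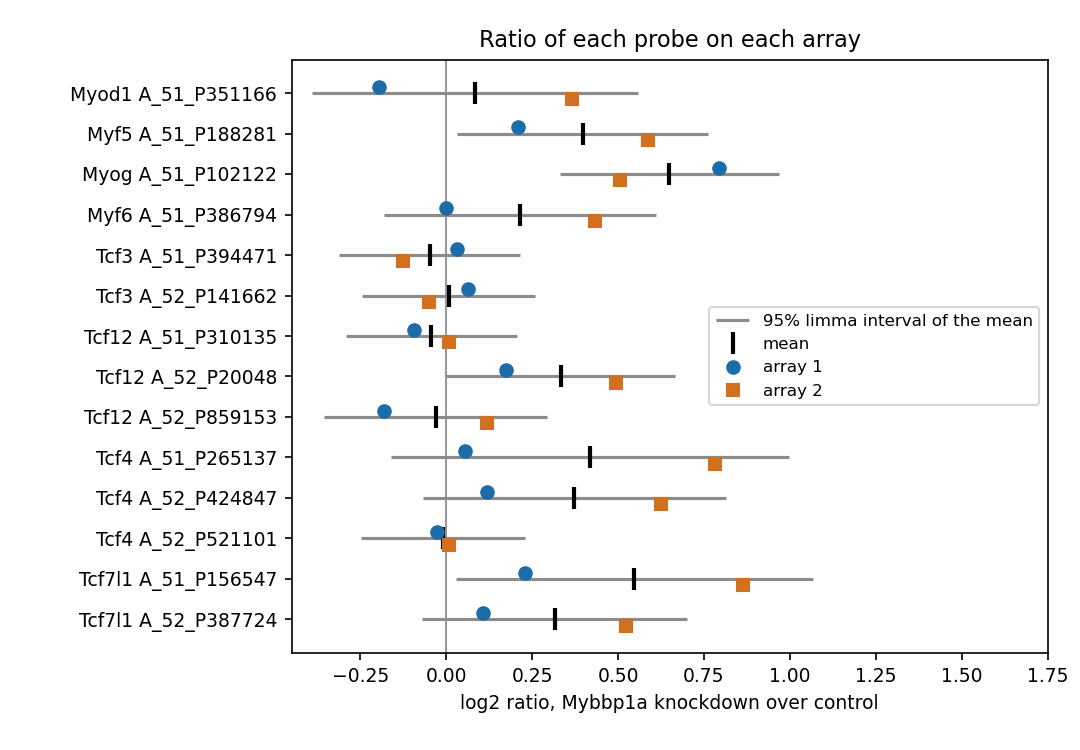
The plot gives the log2 ratio of knockdown over control of each of the 14 probes on array 1 (circles) and array 2 (squares), with the mean (black bar) and its 95% interval from limma (grey line). Myog lies at 0.79 and 0.51 and is the bHLH probe with the highest mean, while the Tcf3 probes lie between -0.13 and 0.06.

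Myog had the highest mean ratio of the 12 bHLH probes. Its normalized log2 intensity was 8.63 in the control and 9.43 in the knockdown on array 1, and 8.95 and 9.46 on array 2. Both knockdown levels lay above both control levels. The log2 ratios were 0.79 and 0.51, a mean of 0.65 ± 0.20 (SD, n = 2) or 1.57-fold higher, with a 95% limma interval of 0.33 to 0.97. The limma p was 0.00519 unadjusted and 0.159 after Benjamini-Hochberg adjustment over all tested probes, so the difference did not pass the threshold. A mean at least as high was found for 3.47% of the tested probes. Under median centring Myog had a ratio of 0.85 and passed the threshold (limma adjusted p = 0.0255).

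Because the Myog, Myf5 and Myod1 probes were printed in 10 spots each, their ratios could be read many times within an array. On array 1 the 10 spots of Myog ran from 0.60 to 0.95 with a median of 0.78, and on array 2 from 0.44 to 0.66 with a median of 0.49. Every spot was above 0. The ranges of both arrays overlapped only through the spot at 0.60 on array 1 and the spot at 0.66 on array 2. The spot of Myog at 0.95 was also its dimmest in the knockdown channel on array 1, at a signal of 748. On array 2 its highest spot, at a knockdown signal of 1083, was not the dimmest, as 3 spots were dimmer. In the authors' deposited Feature Extraction output, which tests each spot against an error model of a single array, all 10 Myog spots had p under 0.05 on array 1 (median p = 0.000118) and on array 2 (median p = 0.0237). The spots of an array repeat 1 hybridization, and the share of all probes with such a p is not given here. These counts therefore do not set Myog apart, and the same holds for the single-array p-values of Myf5 and Myf6 below.

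Myf5, the earliest of the 4 to be expressed in the embryo, was the other myogenic factor higher on both arrays. Its log2 intensity was 10.73 in the control and 10.94 in the knockdown on array 1, and 8.98 and 9.57 on array 2. The knockdown was above its own control on each array, but both RNAs of array 1 lay above both RNAs of array 2. The log2 ratios were 0.21 and 0.59, a mean of 0.40 ± 0.27 (SD, n = 2) or 1.32-fold higher, with a 95% limma interval of 0.03 to 0.76. The limma p was 0.0392 unadjusted and 0.210 after Benjamini-Hochberg adjustment. Under median centring the ratio was 0.65 and passed (limma adjusted p = 0.0368).

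The level of Myf5 moved more between the arrays than between the RNAs. The control level was 3.36-fold lower on array 2 than on array 1 and the knockdown level 2.58-fold lower, and only 0.689% and 0.692% of tested probes differed as much between the arrays in that channel. The 9 or 10 spots used per array were close together, from 0.16 to 0.24 on array 1 and from 0.54 to 0.63 on array 2, and these ranges did not overlap. In the authors' deposited output, 0 of 9 Myf5 spots had a single-array p under 0.05 on array 1 and 10 of 10 on array 2. Whether the level of Myf5 has a part in its ratio was not tested.

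**Figure D2:**
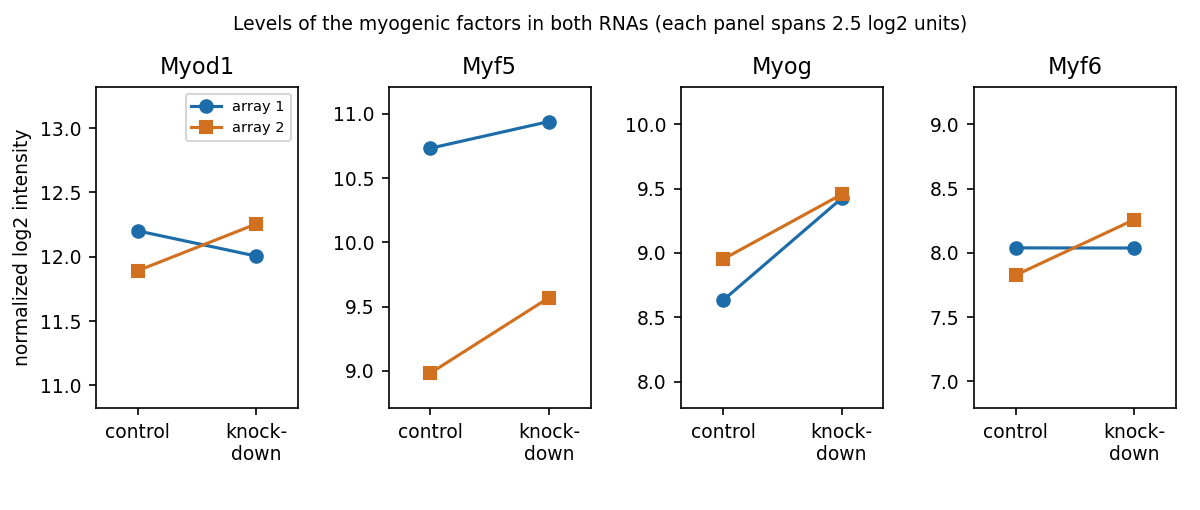
Each panel gives the normalized log2 intensity of 1 myogenic factor in control and knockdown RNA, with a line joining the RNAs of array 1 (circles) and of array 2 (squares), and all panels span the same log2 range. Myog is higher in the knockdown on both arrays by 0.79 and 0.51, Myf5 is lower on array 2 in both RNAs, and the lines of Myod1 cross.

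Myod1 gave no common direction. Its log2 intensity was 12.20 in the control and 12.005 in the knockdown on array 1, and 11.89 and 12.26 on array 2, so the groups overlapped. The log2 ratios were -0.20 and 0.36, a mean of 0.08 ± 0.40 (SD, n = 2) with a 95% limma interval of -0.39 to 0.56 and a Benjamini-Hochberg adjusted limma p of 0.806. The 9 spots used on array 1 ran from -0.32 to -0.03 and the 9 on array 2 from 0.24 to 0.42. Every spot was below 0 on array 1 and above 0 on array 2. The SD between arrays, 0.40, was larger than the SD among spots of the probe, 0.081 and 0.054.

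For scale, the 245 probes printed 10 times had a median SD among their spots of 0.070 on array 1 and 0.057 on array 2. Over the 168 of them that were tested, the median SD between the arrays was 0.140. Spots of 1 array thus spread less than the arrays did, and spots are not replicates of the knockdown.

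**Figure D3:**
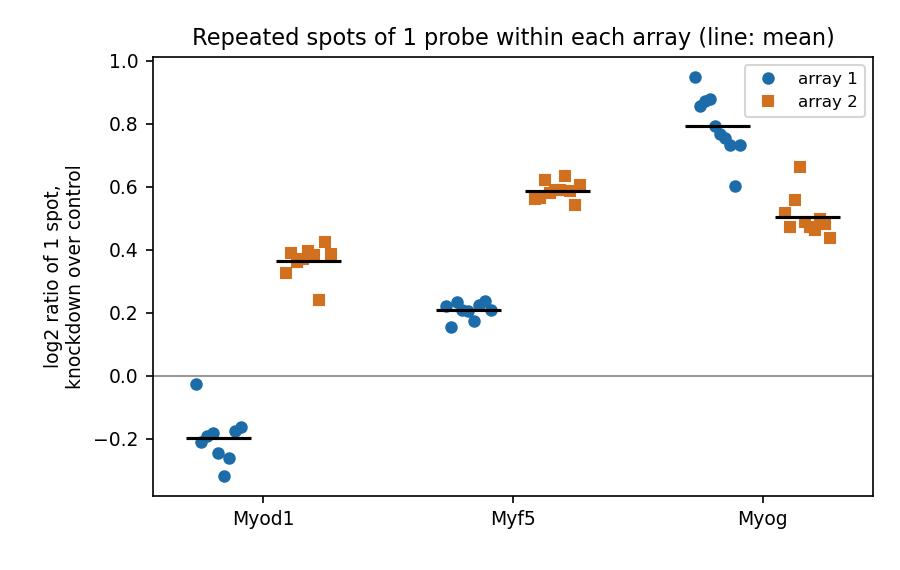
Each point is the log2 ratio of knockdown over control of 1 spot of the Myod1, Myf5 or Myog probe, on array 1 (circles) and array 2 (squares), with a line at the mean. The Myod1 spots lie on opposite sides of 0 on the arrays, the Myf5 spots fall into separate bands around 0.21 and 0.59, and all Myog spots are above 0.

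Myf6 had log2 intensities of 8.04 in both RNAs on array 1, and of 7.83 in the control and 8.26 in the knockdown on array 2. Its ratios were -0.001 and 0.43, a mean of 0.22 ± 0.31 (SD, n = 2), with an adjusted p of 0.429 by limma. Only array 2 separated the RNAs, and with 1 spot per array no spread among spots could be given. In the authors' deposited output its single-array p was 0.977 on array 1 and 0.00592 on array 2.

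The order of the 4 factors by mean ratio was Myog (0.65), Myf5 (0.40), Myf6 (0.22) and Myod1 (0.08), and the 95% limma interval of each overlapped that of its neighbour. On array 1 the ratio of Myog stood 0.99 above that of Myod1 and 0.59 above that of Myf5. On array 2 the same differences were 0.14 and -0.08. The gap that set Myog apart on array 1 was thus not repeated on array 2, where Myf5 was the higher of the pair. The ratio of Myf5 stood above that of Myod1 on both arrays, by 0.40 and 0.22.

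Among the E proteins, the 2 probes of Tcf3 gave ratios near 0. Probe A_51_P394471 had log2 ratios of 0.03 and -0.13 and probe A_52_P141662 of 0.06 and -0.05, with means of -0.05 ± 0.11 and 0.007 ± 0.079 (SD, n = 2). The 95% limma intervals were -0.31 to 0.22 and -0.24 to 0.26, and the adjusted limma p-values were 0.798 and 0.973. The probes differed from each other by at most 0.08 on an array. Under median centring the means were 0.28 and 0.27, so that the first changed sign and the second did not, and neither passed.

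The 3 probes of Tcf12, which encodes the E protein HEB, did not give the same ratio. Probe A_52_P20048 had log2 intensities of 14.46 in the control and 14.63 in the knockdown on array 1 and of 14.40 and 14.89 on array 2, with both knockdown levels above both control levels. Its ratios were 0.17 and 0.49, a mean of 0.33 ± 0.23 (SD, n = 2), with a limma p of 0.0498 unadjusted and 0.229 after Benjamini-Hochberg adjustment. The other probes had ratios of -0.09 and 0.007 (A_51_P310135) and of -0.18 and 0.12 (A_52_P859153), with means of -0.04 ± 0.07 and -0.03 ± 0.21 (SD, n = 2). On each array A_52_P20048 stood above both, by 0.27 and 0.49 over the first and by 0.36 and 0.37 over the second. Under median centring A_52_P20048 passed at 0.72 (limma adjusted p = 0.0282) and the others turned to 0.23 and 0.21 without passing, so the offset between the probes remained and their sign did not.

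Tcf4, an E protein gene and not the Wnt factor Tcf7l2 that often goes by the same name, was read by 3 probes. Probes A_51_P265137 and A_52_P424847 had ratios of 0.06 and 0.12 on array 1 and of 0.78 and 0.63 on array 2, with means of 0.42 ± 0.51 and 0.37 ± 0.36 (SD, n = 2). Both were nearer to 0 on array 1 than on array 2, and they differed from each other by 0.06 and 0.15. Probe A_52_P521101 had ratios of -0.03 and 0.007, at log2 intensities of 7.71 to 7.89 in the 4 RNA samples. None of the 3 passed, with adjusted limma p-values of 0.324, 0.274 and 0.954. Under median centring A_52_P424847 passed at 0.65 (limma adjusted p = 0.0451).

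In the authors' deposited output, 1 probe of Tcf12 (A_52_P20048, p = 0.0243) and both brighter probes of Tcf4 (A_51_P265137, p = 0.000328, and A_52_P424847, p = 0.00465) had a single-array p under 0.05 on array 2, and none of the 8 E protein probes had one on array 1. The share of all probes with such a p on either array is not given here, so these counts do not set the E proteins apart. Over the 12 bHLH probes, the ratio was higher on array 2 than on array 1 for 9, beside 48.8% of all tested probes.

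Tcf7l1, read by the probes named Tcf3, is a repressor of Wnt target genes when beta-catenin is absent. Probe A_51_P156547 had log2 intensities of 13.61 in the control and 13.84 in the knockdown on array 1 and of 12.76 and 13.62 on array 2. The control level was 1.80-fold lower on array 2 than on array 1 and the knockdown level 1.16-fold lower. The ratios were 0.23 and 0.86, a mean of 0.55 ± 0.45 (SD, n = 2), with an unadjusted limma p of 0.0433 and an adjusted p of 0.217. The other probe, A_52_P387724, had ratios of 0.11 and 0.52, a mean of 0.32 ± 0.29 (SD, n = 2), and an adjusted limma p of 0.284. If the name in the files were read as the E protein Tcf3, these ratios would stand in place of the values near 0 that the Tcfe2a probes gave.

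**Figure D4:**
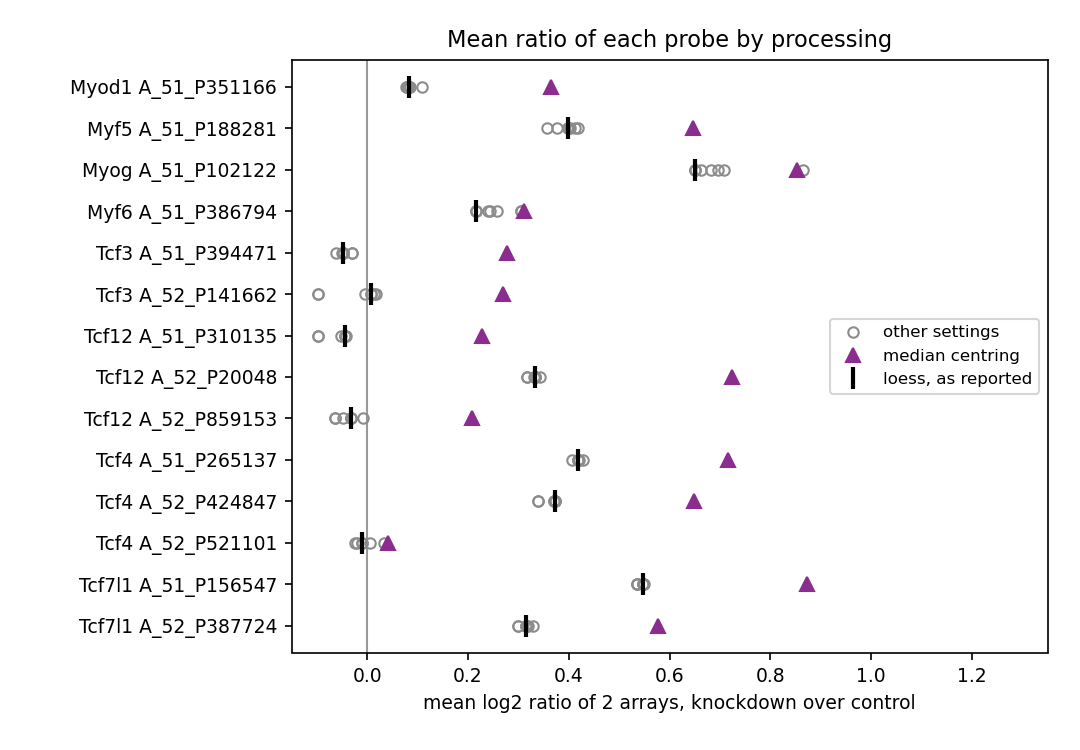
The plot gives the mean log2 ratio of knockdown over control over both arrays for each of the 14 probes, as reported with loess (black bar), under median centring of the arrays (triangles) and under the other settings (open circles). Median centring places all 12 bHLH probes above 0, while the other settings that use both arrays keep Myog between 0.65 and 0.87.

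The E-box links the factors to their own genes, since the Myog promoter is a classic target of myogenic factors. The 250 bases before the RefSeq start of Myog (chr1:134289754-134290003, plus strand, GRCm38.p6) are shown with each match to CANNTG, which reads the same on both strands, in capitals.
Myog promoter: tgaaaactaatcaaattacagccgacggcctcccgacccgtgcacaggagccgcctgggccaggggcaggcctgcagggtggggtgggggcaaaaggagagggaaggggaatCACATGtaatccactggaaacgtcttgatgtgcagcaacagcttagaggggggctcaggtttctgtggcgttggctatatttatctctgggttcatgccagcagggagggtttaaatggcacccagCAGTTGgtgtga
The matches were CACATG at bases -138 to -133 and CAGTTG at bases -12 to -7, counted from the start site. Of 32851 mouse promoter windows of this length, 66.2% held at least 1 match and 31.8% at least 2, so the count is a common one. The window of Myf5, the other factor higher on both arrays, held 0. The window of Tcf3, whose probes had ratios near 0, held 1, and the windows of Tcf12 held 1, 1 and 0. Whether the matches have a part in the ratios was not tested.

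The genes around the bHLH factors were read by lists of known partners, regulators and targets, each gene by its brightest probe. None of the 80 tested list genes was called at an adjusted limma p under 0.05, as none of the 18068 tested genes was. At an unadjusted limma p under 0.05, 14.3% of all tested genes were higher and 8.06% lower, and 40.6% were higher and 29.4% lower on both arrays. The median of all tested genes was 0.03.

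Of 17 listed partners and inhibitors, 13 were tested, and 7 were higher and 3 lower on both arrays, with a median log2 ratio of 0.09. The Id genes took no common direction. Id1 had ratios of -0.34 and 0.43, Id2 of -0.56 and -0.01 and Id3 of -0.08 and 0.13, with adjusted limma p-values of 0.922, 0.386 and 0.910, and the mean of Id2 turned from -0.28 to 0.07 under median centring. A second probe of Id1 (-0.45 and 0.36) and of Id2 (-0.57 and -0.08) had the same signs as the first on each array. Id4 had the lowest mean of the list, with ratios of -0.22 and -2.15 (-1.19 ± 1.36, SD, n = 2), but on array 1 the knockdown RNA gave no signal well above background. Zeb1, a zinc-finger repressor that competes for E-boxes, had the highest mean among genes of 1 sign, with ratios of 0.60 and 0.39 (0.49 ± 0.15, SD, n = 2, limma adjusted p = 0.163).

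Of 13 listed upstream regulators of the myogenic factors, 8 were tested, 5 were higher and 0 lower on both arrays, and the median was 0.13. Pax7, the paired-box factor of muscle stem cells, had ratios of 0.04 and 0.05, and its mean of 0.05 turned to -0.11 with the scanner's processed signals. Tbx1, a T-box factor of head muscle, had ratios of 0.31 and 2.15 (1.23 ± 1.30, SD, n = 2, limma adjusted p = 0.254). The ratio without array 2 was thus 0.31.

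All 18 cofactors were tested, with 6 higher and 6 lower on both arrays and a median of -0.01, which turned to 0.29 under median centring. Mef2d, a MADS-box factor that acts with myogenic bHLH factors on muscle promoters, had ratios of 0.44 and 0.55 (0.49 ± 0.08, SD, n = 2, limma adjusted p = 0.159) by its brightest probe. Its other 2 tested probes were lower on both arrays, with means of -0.05 and -0.21, so the probes disagree on the direction. Mef2c, of the same family, had ratios of 0.05 and -0.55 (-0.25 ± 0.42, SD, n = 2). Smarca4, the ATPase of the SWI/SNF chromatin remodeller, had ratios of -0.21 and -0.32, and its mean of -0.26 turned to 0.15 under median centring. Its other 2 tested probes had means of 0.05 and -0.34.

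Muscle genes that myogenic factors are known to activate were measured for 26 of 30 listed. Of the 26, 12 were higher and 4 lower on both arrays, 7 had an unadjusted limma p under 0.05 and were higher, and 0 were lower at that level. The 7 were Chrng, Tnnc1, Tnnc2, Tnni1, Tnni2, Tnnt1 and Cdkn1c, while Tnnt2 and Tnnt3 had opposite signs on the arrays. For all 26 genes the values are as follows. The median of the 26 was 0.15, with 0.22 on array 1 and 0.02 on array 2. Cdkn1c, a cyclin-dependent kinase inhibitor, had ratios of 0.76 and 1.18 (0.97 ± 0.29, SD, n = 2, limma adjusted p = 0.153). Its control log2 intensities were low, at 7.53 and 6.94, and its mean was 1.71 with the scanner's processed signals. Myl1, a myosin light chain, had ratios of -0.30 and -1.78 (-1.04 ± 1.05, SD, n = 2, limma adjusted p = 0.241). It was dim in the knockdown, at log2 intensities of 7.58 and 7.12. A second Myl1 probe, at 0.20 and -0.26, was not well above background in any channel. Ckm, the muscle creatine kinase, had ratios of 0.04 and 0.001, but it was dim. Its control log2 intensities were 7.53 and 6.88, where the lowest control levels well above background were 6.81 and 6.34. Chrna1, a subunit of the acetylcholine receptor, had ratios of -0.06 and -0.23. A dimmer Chrna1 probe went the other way, at 0.23 and 0.24, so no direction can be given for that gene. Under median centring the mean of Ckm turned from 0.02 to -0.12 and that of the brighter Chrna1 probe from -0.15 to 0.38.

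Class II bHLH factors of other lineages served for comparison. Of 23 listed, 11 were tested, with 4 higher and 3 lower on both arrays and a median of 0.007. Atoh1, a neural factor, had ratios of 0.45 and 0.50 (0.47 ± 0.03, SD, n = 2, limma adjusted p = 0.159). It was dim, at control log2 intensities of 7.34 and 7.15, and its mean was 0.63 with processed signals. Scx, a tendon factor, had ratios of -0.17 and -0.21, with a mean of -0.19 that turned to 0.26 under median centring. All 4 genes of the TCF/LEF family, to which Tcf7l1 belongs, were tested. Of these, 3 were higher on both arrays and the median was 0.60, led by Tcf7l2 with ratios of 0.79 and 0.70 (0.74 ± 0.06, SD, n = 2, limma adjusted p = 0.152). The other 3 tested Tcf7l2 probes had lower means, of 0.15, 0.32 and 0.14, so the value of the gene depends on the probe.

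**Figure D5:**
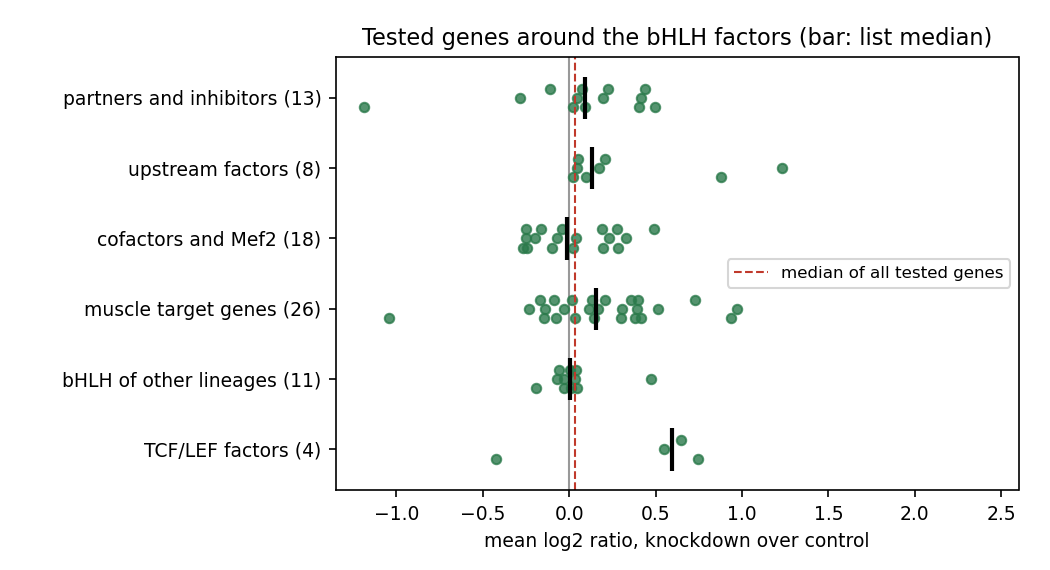
Each point is the mean log2 ratio of knockdown over control of 1 tested list gene by its brightest probe, with a bar at the median of the list, the number tested in brackets and a dashed line at the median of all tested genes. The medians of 5 lists lie between -0.01 and 0.15, and 3 of the 4 TCF/LEF genes lie above 0.5.

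Among the 80 tested list genes, those whose pair of ratios lay nearest to that of Myog were Tcf7l2, at a Euclidean distance of 0.199, Tcf7 (0.64 and 0.66) at 0.217 and Zeb1 at 0.228, over 2 arrays and by the brightest probe of each gene. A second Tcf7 probe had ratios of 0.37 and 0.19.

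Markers of fibroblasts were also higher in the knockdown, though none passed the threshold (lowest limma adjusted p = 0.156). Of 6 listed, 5 were well above background in every channel, and all 5 (Pdgfra, Col1a1, Col1a2, Dcn and Lum) were higher in the knockdown on both arrays, with a median of 0.81. Col1a1 had log2 ratios of 1.71 and 4.60, the sixth marker, Thy1, was not above background in any channel, and the summed intensity of the list was 105258 in the control and 155592 in the knockdown on array 1, and 91851 and 182498 on array 2. Single markers of other lists were higher on both arrays too. Among osteoblast and chondrocyte markers these were 3 of 6 tested, with Bglap, the osteocalcin gene, at 1.92 and 1.63 (limma adjusted p = 0.137) and Col2a1, a cartilage collagen, at 0.56 and 1.52. Runx2 (0.03 and -0.14), Sox9 (0.01 and -0.31) and Acan (0.02 and -0.04) had opposite signs on the arrays. The median of this list was 0.06. Its summed intensity was 36320 in the control and 46500 in the knockdown on array 1, and 29288 and 42651 on array 2. Both tested endothelial markers were higher, with Cdh5 at 1.03 and 0.68, though its control channel on array 1 was not well above background. Of leukocyte markers 2 of 3 tested were higher on both arrays, of adipocyte markers 1 of 3 and of neural markers 1 of 4. The share of all tested genes higher on both arrays was 40.6%. Of the neural markers 2 were lower on both arrays, among them Tubb3 at -0.23 and -0.76. The summed neural intensity was 7802 in the control and 7076 in the knockdown on array 1, and 13294 and 8463 on array 2. The summed intensity of the 9 myoblast markers was 143878 and 138668 on array 1, and 126065 and 124132 on array 2. The fibroblast, myoblast and neural sums rest mostly on the brightest gene of each list, which was Col1a2, Chrna1 and Tubb3. Their log2 intensities in the control of array 1 were 16.43, 16.43 and 12.73. In bulk RNA, fewer or more cells of a type and less or more RNA per cell cannot be told apart, and the part of the cells these markers stand for in the ratios of Myog and Myf5 was not tested.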

How the data were processed

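Scanned images were quantified in Agilent Feature Extraction (version 9.5.3.1), per the submitters' processing notes. Per the file headers, each spot was deposited with its mean, background and processed intensity in both dyes. Feature Extraction's log10 ratio (Cy5 to Cy3) and its p-value under a single-array error model stand beside them, per the file headers. The authors' deposited value table holds log2 ratios of knockdown over control.

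Here, limma 3.58.1 (R 4.3.3) applied normexp with offset 50, then loess with span 0.3. Control spots (1639) got no weight in loess and were dropped with the outlier spots (154 and 237), and the remaining spots of a probe were averaged. Levels were normalized with Aquantile. A probe was tested if, on both arrays, 1 or both dyes were well above background (lmFit with an intercept, eBayes, two-sided, Benjamini-Hochberg). Each probe had 1 residual degree of freedom, and 3.78 in total once eBayes drew on the spread of all tested probes. The code was tested on simulated data. An exact sign-flip test of 2 arrays cannot give a p below 0.5. Accessions in the RefSeq gene table of GRCm38.p6 named 23374 probes, current symbols 6735 and synonyms 2907, and 8158 kept the file's name.

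Named were every member probe, in each list the genes with the highest and the lowest mean among those of 1 sign on both arrays, genes at least 2-fold apart in 1 direction on both arrays, a fixed few (Id1, Id2, Id3, Mef2c, Ckm, Chrna1 and Mybbp1a) and the 3 nearest to Myog. Tcf7 is named by the last rule, and the cell type markers are values beside the results, with examples chosen after their values were seen. The muscle targets with an unadjusted limma p under 0.05, and Tnnt2 and Tnnt3, were also named after their values were seen. The members and lists were chosen with earlier results of these data known. RefSeq promoter windows were matched for Myog, Myf5, Tcf3 and Tcf12.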

Additional observations from a re-analysis of the deposited data

How the results depend on the processing

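Alternatives were median centring, no background correction, offset 10, span 0.6, the scanner's processed signals, the deposited value table, no filter on dim probes, a filter on both channels, the brightest probe per gene and leaving out either array. Median centring called 4358 probes higher (16.1% of those tested) and 120 lower (0.444%), against 0 and 0, so that 97.3% of 4478 calls were higher. By limma with Benjamini-Hochberg adjustment it brought past the threshold Myog (0.85), Myf5 (0.65), Tcf12 A_52_P20048 (0.72), Tcf4 A_52_P424847 (0.65), Tcf7l1 A_51_P156547 (0.87) and A_52_P387724 (0.58), and Mybbp1a (-1.50). It turned the sign of Tcf3 A_51_P394471 (0.28), Tcf12 A_51_P310135 (0.23) and A_52_P859153 (0.21), Tcf4 A_52_P521101 (0.041), Id2 (0.070), Smarca4 (0.15), Ckm (-0.12), Chrna1 (0.38) and Scx (0.26). It moved the medians of partners and inhibitors to 0.37, upstream factors to 0.35, cofactors to 0.29, targets to 0.37, other bHLH factors to 0.041 and TCF/LEF factors to 0.88, with all tested genes at 0.21. The cause was not tested. No member passed in any other setting with a test (limma). Tcf3 A_52_P141662 turned to -0.10 with processed signals and with the value table and to -0.0037 at offset 10. Tcf4 A_52_P521101 turned to 0.0064 without background correction and to 0.034 at span 0.6. Pax7 turned to -0.11 and Ckm to -0.027 with processed signals and with the value table. The cofactor median was -0.060 with processed signals, -0.070 with the value table, and -0.054 to 0.0038 leaving out an array. The median of the other bHLH factors was 0.00079 without background correction, -0.069 with processed signals, -0.045 with the value table, -0.031 without a filter, 0.0086 with both channels filtered, -0.0081 at offset 10, 0.044 at span 0.6, and 0.0094 to 0.011 leaving out an array. Leaving out an array leaves no residual degree of freedom, so no calls were counted there. No paired analysis was possible because each ratio already sets both RNAs of 1 array against each other and only 1 group of ratios exists. All members were above background in both channels, but some were dim. On arrays 1 and 2 the control signal was 164.8 and 160.5 for Myf6 and 145.5 and 162.9 for Tcf4 A_52_P521101. The mean of Myf6 was 0.22 in the main setting and 0.31 with processed signals.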

Other observations

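The deposited value table gives 1 number per probe, also for probes printed in 10 spots. Of 244 such probes with a value, all 244 equalled the ratio of some single spot within 0.001 on the log2 scale on each array, while 12 on array 1 and 6 on array 2 equalled the mean of the spots. The value was that of the first listed spot for 220 probes on array 1 and 199 on array 2. For Myog the authors' deposited table gives 1.15 and 0.58, a mean of 0.87, where the processed ratios of all spots gave 0.71. The table was blank on array 2 for the Tcf4 probes A_51_P265137 and A_52_P521101.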
